A study of Rattus with 18 samples.

Results

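Fatty acid oxidation and ketone body metabolism were followed in rat glomeruli through 33 genes for the enzymes, carriers and regulators of the pathway, out of 23230 genes and transcripts tested on the arrays. The members were chosen by name, from a list of symbols, with earlier results of these data known. All 33 were on the array, and all were well above background on each of the 18 arrays, so that the filter on dim probes left out none. The member listed as Cyp4a14 is an older name of the gene now called Cyp4a3 in rat.

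Nephritis of the glomerulus was brought on in Sprague-Dawley rats of 200 g with anti-Thy1 antibody, which binds mesangial cells, and the glomeruli were studied 1, 2, 3, 4 and 5 days later. The day 0 group is the control and had received saline. Each of these 6 groups had 3 single-colour arrays. According to the labels, a time point drew on 6 rats and 3 glomeruli of each. They do not name the rats behind an array. The p-values rest on the spread among arrays of the same group, pooled over the 6 groups in 1 model. Part of that spread may be technical. An array is referred to by its day and the replicate number given in its title.

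Fatty acids are activated to acyl-CoA, carried into mitochondria as acylcarnitines by the carnitine shuttle, and cut in repeated rounds of dehydrogenation, hydration, a second dehydrogenation and thiolysis. The acyl-CoA dehydrogenases hand their electrons to the electron transfer flavoprotein, peroxisomes shorten the longest chains, and ketone bodies are made from, or returned to, acetyl-CoA. In the kidney the proximal tubule depends on this oxidation for its energy, and the nuclear receptor PPAR alpha (Ppara) and its coactivator Ppargc1a raise many of these genes in fasting.

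The probes that carry 4 of the results below are shown with their positions in genome build rn4, as the array files give them. Angptl4 and Ech1 had among the clearest falls, and Etfa and Hadhb among the clearest rises. Each is the 60-base probe sequence, 5′ to 3′.
Angptl4 (chr7:16262218-16262277, minus strand): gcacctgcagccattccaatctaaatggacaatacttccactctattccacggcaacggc
Ech1 (chr1:83938502-83938561, plus strand): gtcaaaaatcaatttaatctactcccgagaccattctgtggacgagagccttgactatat
Etfa (chr8:59049497-59050934, minus strand, a span of 1438 bases that holds the 60 bases of the probe with a gap): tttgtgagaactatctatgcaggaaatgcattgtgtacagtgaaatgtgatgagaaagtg
Hadhb (chr6:26144500-26144559, minus strand): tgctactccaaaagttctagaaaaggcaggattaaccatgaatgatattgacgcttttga

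Of the 33 members, 14 passed the test against day 0 on at least 1 day (limma, Benjamini-Hochberg adjusted over all 23230 genes, threshold 0.05): 10 were lower, 4 were higher, and none was called in both directions. Of all genes 71.2% passed on at least 1 day, 34.9% lower and 36.6% higher, so that 14 of 33 is below the share of all genes and the members as a group were not called more often. By the moderated F-test over all 6 time points 16 of the 33 changed (48.5%), against 53.0% of all genes tested. They include 4 members with no call on any single day, Etfdh (adjusted p = 0.0128), Ppara (0.0299), Cyp4a3 (0.0389) and Slc25a20 (0.0413). The other 19 members passed on no single day, and most of the central mitochondrial enzymes are among them. Under other scalings between arrays some of these 19 did pass. Levels are log2 values relative to the array's 75th percentile, where 0 equals that percentile, and changes are log2 differences ± SE with n = 3 arrays per day. Levels of different genes come from different probes and are not compared.

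**Figure D1:**
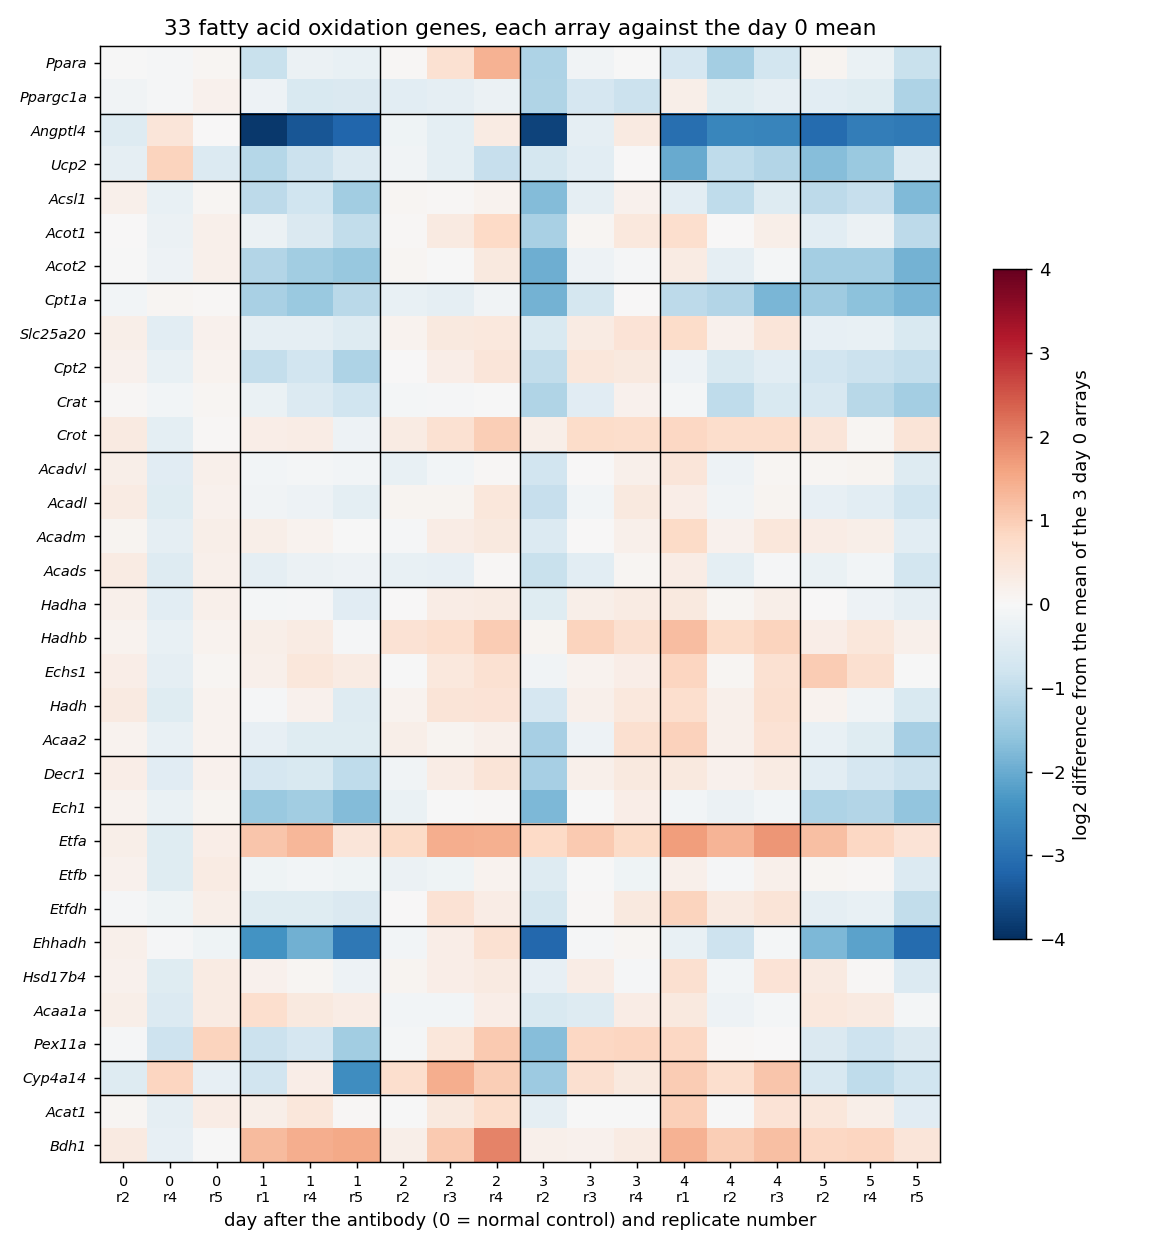
Each cell is 1 member (rows, ordered by role with lines between roles) on 1 array (columns, day and replicate number), coloured by its log2 difference from the mean of the 3 day 0 arrays. Angptl4 and Ehhadh are dark blue on the 3 arrays of day 1, on day 3 replicate 2 and on the 3 arrays of day 5, and Etfa is above the day 0 mean on all 15 arrays after the antibody.

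On day 1, 7 members were lower than on day 0 (21.2% of the members, against 20.8% of all genes) and 2 were higher (6.06%, against 19.2%). The median member change was -0.43, against 0.06 over all genes. On day 2 none was lower (25.1% of all genes were) and 4 were higher (12.1%, against 20.8%), with a median of 0.23 against 0.04. Day 3 had 1 lower (3.03%, against 26.0%) and 2 higher members (6.06%, against 21.7%), and medians of -0.21 for the members and -0.02 for all genes. On day 4, 3 members were lower (9.09%, against 26.7%) and 4 higher (12.1%, against 25.6%), with medians of 0.24 and 0.05. Day 5 had 10 lower members (30.3%, against 23.4%) and 1 higher (3.03%, against 20.9%), with medians of -0.52 and 0.06. In this scaling the share of lower members on day 1 lay near that of all genes, and is no result about the members as a group. Under quantile normalization, 12 of 33 members against 16.3% of all genes were lower on day 1. All 5 comparisons share the same 3 control arrays.

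**Figure D2:**
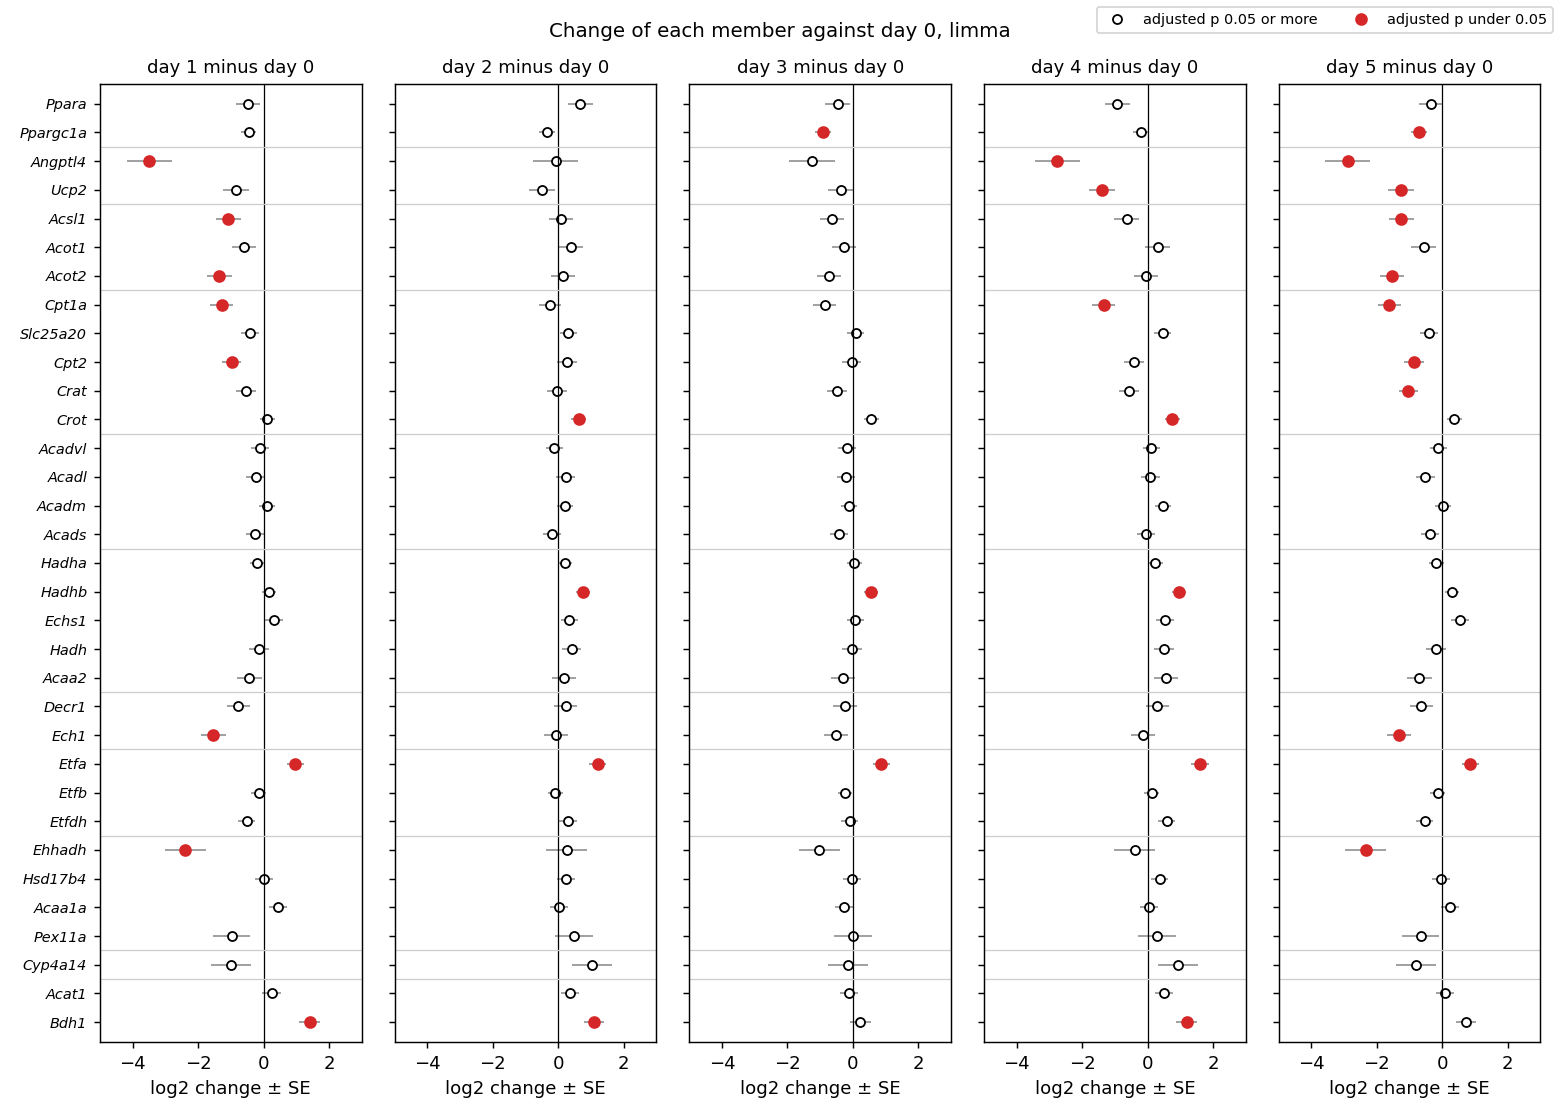
Log2 change of each member against day 0 (x axis, ± SE of the fit, n = 3 arrays per group), 1 panel per day. Filled red points passed at an adjusted p under 0.05; the acyl-CoA dehydrogenases (Acadvl, Acadl, Acadm, Acads) have open points in all 5 panels.

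Of the 2 regulators Ppargc1a was called on days 3 and 5, and Ppara on no single day. Ppara, the fatty acid sensing nuclear receptor, had levels of -1.90, -1.93 and -1.80 on day 0, -2.75, -2.10 and -2.18 on day 1, -1.83, -1.26 and -0.50 on day 2, -3.12, -2.02 and -1.89 on day 3, -2.54, -3.24 and -2.61 on day 4 and -1.77, -2.14 and -2.77 on day 5. All 3 arrays of days 1 and 4 lay below the controls, and the other days overlapped them. Its change on day 4, -0.92 ± 0.37, narrowly missed the threshold (adjusted p = 0.0501), and it passed there when any 1 of 6 single arrays of other groups was left out. For Ppargc1a, the coactivator of mitochondrial gene programmes, the levels were -0.16, -0.07 and 0.13 on day 0, -0.24, -0.63 and -0.60 on day 1, -0.47, -0.40 and -0.28 on day 2, -1.25, -0.72 and -0.90 on day 3, 0.21, -0.51 and -0.40 on day 4 and -0.44, -0.53 and -1.27 on day 5. It was lower on day 3 (-0.92 ± 0.24, adjusted p = 0.00579) and on day 5 (-0.71 ± 0.24, 0.0245). The arrays of those days lay below all controls, as did those of days 1 and 2, which were not called. The day 5 call was lost without day 5 replicate 5 (-0.45), day 0 replicate 4 or day 0 replicate 5.

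Angptl4, a secreted inhibitor of lipoprotein lipase that is induced in fasting and a PPAR target, had the largest fall among the members on days 1, 4 and 5. Its levels were -0.14, 0.88 and 0.41 on day 0, -3.47, -3.05 and -2.78 on day 1, 0.22, -0.02 and 0.71 on day 2, -3.32, 0.01 and 0.73 on day 3, -2.63, -2.23 and -2.26 on day 4 and -2.70, -2.37 and -2.44 on day 5. The 3 arrays of day 2 and day 3 replicates 3 and 4 lay within the control range, while day 3 replicate 2 lay with the day 1 arrays. It was 11.2-fold lower on day 1 (-3.49 ± 0.69, adjusted p = 0.00342), 6.77-fold lower on day 4 (-2.76 ± 0.69, 0.00446) and 7.41-fold lower on day 5 (-2.89 ± 0.69, 0.00493). On day 3 the change of -1.25 ± 0.69 did not pass (adjusted p = 0.152). Ucp2, an uncoupling protein of the inner mitochondrial membrane, had levels of 0.13, 1.37 and -0.06 on day 0, -1.55, -0.52 and -0.68 on day 4 and -1.23, -0.996 and -0.08 on day 5, and between -0.65 and 0.51 on days 1, 2 and 3. Control replicate 4 stood high, at 1.37. Ucp2 was lower on day 4 (-1.40 ± 0.40, adjusted p = 0.00899) and day 5 (-1.25 ± 0.40, 0.02); without control replicate 4 the changes were -0.95 and -0.81 and neither passed. The day 5 call was also lost without day 5 replicate 2 (-1.02) or replicate 4 (-1.14).

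Among the enzymes that activate fatty acids or release them from CoA, Acsl1, a long-chain acyl-CoA synthetase, had levels of 5.52, 5.04 and 5.41 on day 0, 4.29, 4.52 and 3.93 on day 1, 5.41, 5.35 and 5.47 on day 2, 3.58, 4.97 and 5.50 on day 3, 4.90, 4.32 and 4.81 on day 4 and 4.27, 4.38 and 3.57 on day 5. All arrays of days 1, 4 and 5 lay below the controls. It was lower on day 1 (-1.07 ± 0.37, adjusted p = 0.0332) and on day 5 (-1.25 ± 0.37, 0.0148). The day 1 call was lost when any 1 of the 3 control arrays or any 1 of the 3 day 1 arrays was left out (-1.22 to -0.92), and the day 5 call without day 5 replicate 5 (-0.99). The other 3 probes of Acsl1 were also lower on days 1 and 5. Acot2, a mitochondrial acyl-CoA thioesterase, had levels of 3.61, 3.42 and 3.82 on day 0, 2.46, 2.23 and 2.10 on day 1, 3.70, 3.59 and 4.01 on day 2, 1.66, 3.41 and 3.58 on day 3, 3.94, 3.24 and 3.53 on day 4 and 2.27, 2.25 and 1.71 on day 5. Days 1 and 5 and day 3 replicate 2 lay below every control, with a gap of 0.96 on day 1 and 1.15 on day 5, and day 4 overlapped the controls. Acot2 was 2.55-fold lower on day 1 (-1.35 ± 0.38, adjusted p = 0.0131) and 2.91-fold lower on day 5 (-1.54 ± 0.38, 0.0054). Its cytosolic neighbour and near copy Acot1 changed by -0.60 ± 0.37 on day 1 and -0.57 ± 0.37 on day 5 and did not pass. The 2 genes are close in sequence, so that their probes may share signal.

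In the carnitine shuttle Cpt1a, the outer-membrane transferase that sets the pace of fatty acid entry, was lower on days 1, 4 and 5. It had levels of 2.70, 2.90 and 2.86 on day 0, 1.53, 1.33 and 1.75 on day 1, 2.53, 2.47 and 2.69 on day 2, 0.92, 2.11 and 2.83 on day 3, 1.76, 1.65 and 1.00 on day 4 and 1.40, 1.19 and 1.00 on day 5. The 3 controls spanned 0.193, and no array of days 1, 2, 4 or 5 reached their lowest value. The change was -1.28 ± 0.34 on day 1 (adjusted p = 0.0112), -1.34 ± 0.34 on day 4 (0.005) and -1.62 ± 0.34 on day 5 (0.00262). On day 3 the change of -0.87 ± 0.34 missed the threshold (adjusted p = 0.05005) and passed without day 3 replicate 4 (-1.31). The second probe of Cpt1a was lower than on day 0 on all 5 days (-1.49 to -0.71).

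Cpt2, the transferase of the inner membrane, had levels of 3.17, 2.69 and 3.13 on day 0, 2.05, 2.24 and 1.77 on day 1, 3.02, 3.28 and 3.48 on day 2, 2.01, 3.46 and 3.40 on day 3, 2.79, 2.40 and 2.57 on day 4 and 2.23, 2.14 and 2.05 on day 5. Only days 1 and 5 lay below all controls with all 3 arrays. It was lower on day 1 (-0.98 ± 0.30, adjusted p = 0.0206) and on day 5 (-0.86 ± 0.30, 0.032), but the day 1 call was lost without control replicate 2, control replicate 5 or day 1 replicate 1 or 5 (-0.99 to -0.85). The day 5 call was lost without control replicate 2, control replicate 5 or any 1 of the day 5 arrays (-0.90 to -0.77). Crat, which makes acetylcarnitine, had levels of -0.23, -0.69 and -0.96 on day 5, against 0.45, 0.29 and 0.48 on day 0, and between -0.80 and 0.57 on days 1 to 4. It was lower on day 5 (-1.03 ± 0.30, adjusted p = 0.0136), a call lost without day 5 replicate 5 (-0.86). Crot, the peroxisomal transferase that exports shortened chains as carnitine esters, had levels of 2.62, 1.86 and 2.30 on day 0, 2.53, 2.55 and 2.04 on day 1, 2.58, 2.87 and 3.23 on day 2, 2.51, 3.01 and 2.95 on day 3, 3.09, 2.97 and 2.97 on day 4 and 2.75, 2.34 and 2.76 on day 5. Day 4 lay wholly above the controls, and days 2 and 3 overlapped them. Crot was higher on day 2 (0.63 ± 0.23, adjusted p = 0.035) and on day 4 (0.75 ± 0.23, 0.0134); without control replicate 4, the lowest control, the changes were 0.43 and 0.55 and neither passed. The day 2 call was also lost without control replicate 5 (0.65), day 2 replicate 3 (0.64) or day 2 replicate 4 (0.46). Slc25a20, the carrier that exchanges acylcarnitine for carnitine, did not pass on any single day (-0.42 to 0.46).

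In this scaling few of the genes of mitochondrial beta-oxidation proper were called, while 71.2% of all genes passed on at least 1 day. The 4 acyl-CoA dehydrogenases had no call on any day: Acadvl changed by -0.18 to 0.12 over the 5 days, Acadl by -0.52 to 0.23, Acadm by -0.11 to 0.46 and Acads by -0.42 to -0.05. Of the 5 hydratase, dehydrogenase and thiolase genes 4 were likewise not called: Echs1 (0.08 to 0.54), Hadh (-0.20 to 0.50), Acaa2 (-0.70 to 0.56) and Hadha (-0.19 to 0.24). The SE of these 8 genes' changes lay between 0.23 and 0.38, and with 3 arrays per day changes well above these SEs could also go uncalled. The change of -0.70 in Acaa2 was such a case, so that a missing call does not show an unchanged level. Echs1 passed on day 4 without day 4 replicate 2 (0.74) and on day 5 without day 5 replicate 5 (0.83). The missing calls also depend on the scaling. Under quantile normalization more members were lower on day 5, among them members with no call here. Whether these 8 genes were among them is not reported.

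Hadhb, the thiolase subunit of the trifunctional protein, was the exception. Its levels were 0.55, 0.11 and 0.55 on day 0, 0.65, 0.73 and 0.36 on day 1, 1.00, 1.07 and 1.41 on day 2, 0.50, 1.29 and 1.05 on day 3, 1.64, 1.15 and 1.30 on day 4 and 0.68, 0.87 and 0.60 on day 5. All arrays of days 2, 4 and 5 lay above the controls. It was higher on day 2 (0.75 ± 0.21, adjusted p = 0.011), day 3 (0.54 ± 0.21, 0.0488) and day 4 (0.96 ± 0.21, 0.00218). The day 3 call was lost on leaving out any of 15 of the 18 single arrays, with a change between 0.37 and 0.77 over all 18. The day 2 call was lost without control replicate 4 (0.61) or day 2 replicate 4 (0.63). Its partner subunit Hadha has 3 probes, and they differed. The probe used here changed by -0.19 on day 1 and -0.18 on day 5, a second by -0.40 and -0.51, and the dimmest by -1.48 and -1.87. With the mean of its probes Hadha was lower on day 3 (-0.49, adjusted p = 0.0419), where the probe used changed by 0.04.

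The auxiliary enzymes handle unsaturated chains. Ech1, a dienoyl-CoA isomerase, had levels of 4.73, 4.32 and 4.71 on day 0, 3.11, 3.19 and 2.86 on day 1, 4.33, 4.57 and 4.63 on day 2, 2.78, 4.59 and 4.84 on day 3, 4.49, 4.36 and 4.47 on day 4 and 3.35, 3.43 and 3.02 on day 5. Days 2 and 4 lay at control level, and day 3 replicate 2 lay below the arrays of day 1. It was 2.89-fold lower on day 1 (-1.53 ± 0.37, adjusted p = 0.00709) and 2.5-fold lower on day 5 (-1.32 ± 0.37, 0.011), and both calls held when any 1 array was left out. Decr1, a dienoyl-CoA reductase, changed by -0.77 ± 0.35 on day 1 and -0.65 ± 0.35 on day 5, with no call (adjusted p = 0.0931 and 0.145). Both changes passed without day 3 replicate 2, an array of neither day (adjusted p = 0.0173 and 0.0303).

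Etfa, the alpha subunit of the electron transfer flavoprotein, was the only member higher on all 5 days. Its levels were 1.45, 0.72 and 1.47 on day 0, 2.31, 2.53 and 1.70 on day 1, 1.97, 2.65 and 2.63 on day 2, 2.01, 2.26 and 1.98 on day 3, 2.89, 2.57 and 2.96 on day 4 and 2.42, 2.04 and 1.76 on day 5. None of the 15 arrays after the antibody overlapped the controls, of which replicate 4 was lowest. The changes were 0.97 ± 0.27 on day 1 (adjusted p = 0.0128), 1.21 ± 0.27 on day 2 (0.00311), 0.87 ± 0.27 on day 3 (0.0154), 1.59 ± 0.27 on day 4 (0.00043) and 0.86 ± 0.27 on day 5 (0.0184). Without control replicate 4 they were 0.72, 0.62 and 0.61 on days 1, 3 and 5 and did not pass, while the calls of days 2 and 4 held. The day 1 call was also lost without day 1 replicate 4 (0.79), the day 3 call without day 3 replicate 3 (0.78) and the day 5 call without day 5 replicate 2 (0.69). Etfb, the other subunit, changed by -0.24 to 0.12 and Etfdh, which passes the electrons on to ubiquinone, by -0.54 to 0.58, and neither was called on a single day, although Etfdh passed the F-test. Without day 3 replicate 2 the day 4 change of Etfdh, 0.58, also passed (adjusted p = 0.0377).

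**Figure D3:**
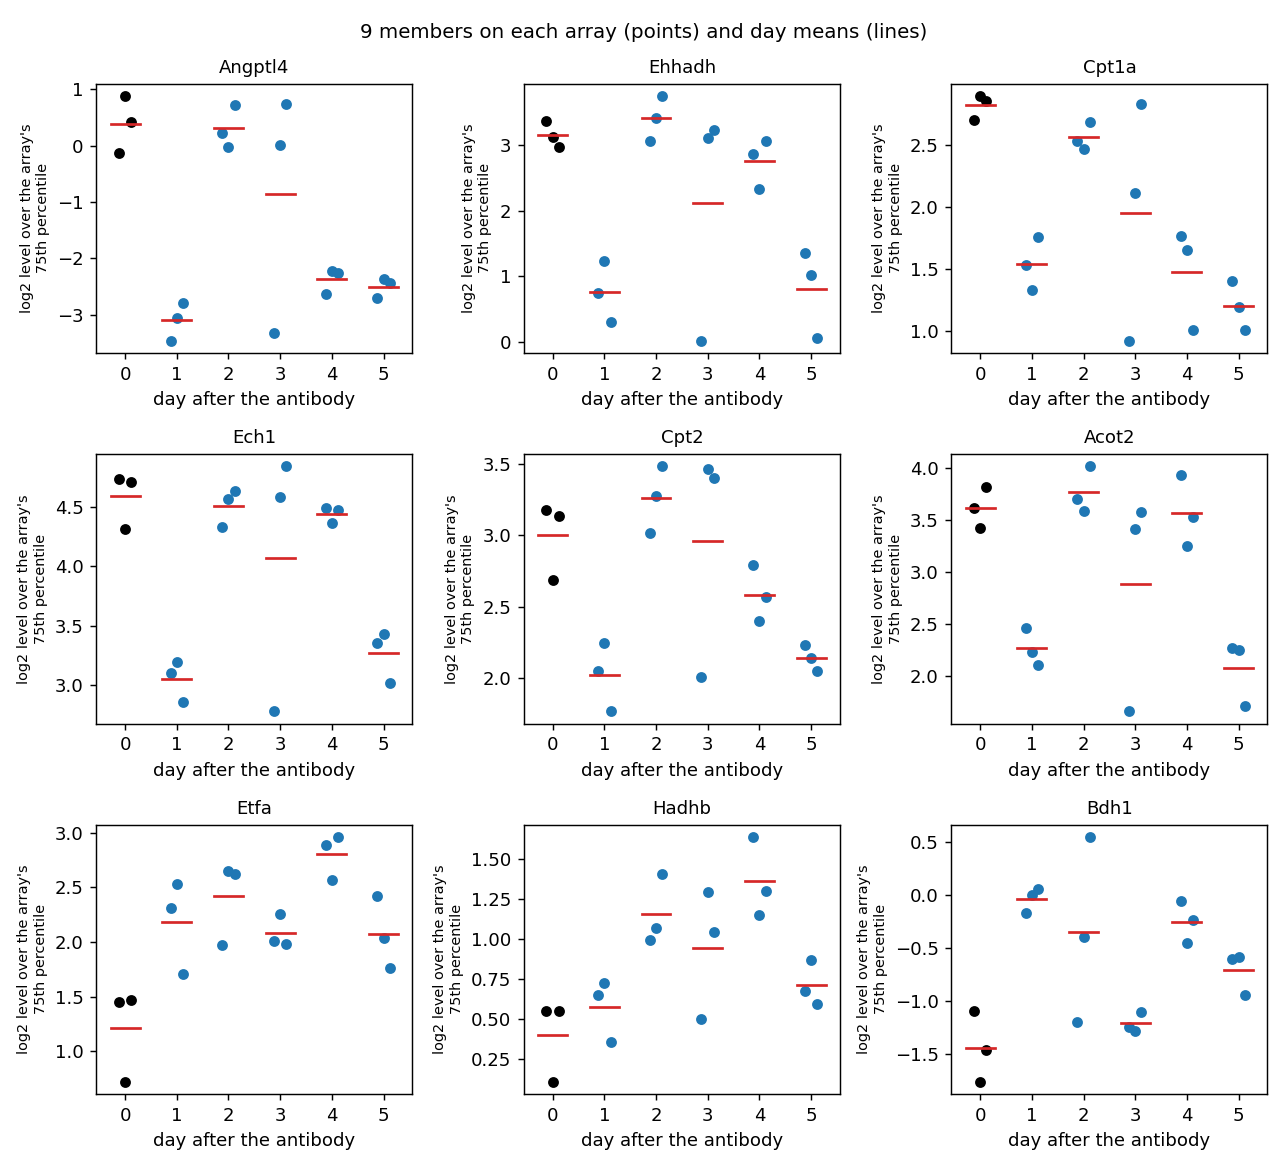
Levels of 9 members on each array (points, in replicate order, log2 over the array's 75th percentile) with day means (lines); black points are the day 0 controls and each panel has its own scale. In the upper 6 panels the point of day 3 replicate 2 lies far below those of replicates 3 and 4.

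In the peroxisomal arm Ehhadh, the bifunctional hydratase and dehydrogenase that is a well-known PPAR alpha target in rodents, had the second largest falls. Its levels were 3.36, 3.12 and 2.97 on day 0, 0.75, 1.23 and 0.30 on day 1, 3.05, 3.41 and 3.75 on day 2, 0.01, 3.10 and 3.23 on day 3, 2.86, 2.32 and 3.07 on day 4 and 1.35, 1.02 and 0.07 on day 5. Day 3 replicate 2 was the lowest of all 18 arrays, and its fellow arrays of day 3 lay within the control range. Ehhadh was 5.24-fold lower on day 1 (-2.39 ± 0.63, adjusted p = 0.01) and 5.05-fold lower on day 5 (-2.34 ± 0.63, 0.0087), also without any 1 array. The other peroxisomal members were not called: Hsd17b4, the second bifunctional enzyme (-0.04 to 0.37), Acaa1a, a thiolase (-0.27 to 0.45), and Pex11a, a membrane protein of dividing peroxisomes (-0.98 to 0.48). The 2 probes of Acaa1a had opposite signs on days 1 and 5 (0.45 and -0.26, then 0.24 and -0.68), and the gene has a near copy, Acaa1b. A second probe of Pex11a was lower on all 5 days (-2.05 to -0.99).

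Cyp4a3, which starts omega oxidation and belongs to a family of close copies, had levels of 6.18, 7.57 and 6.38 on day 0, 5.95, 6.99 and 4.23 on day 1, 7.40, 8.17 and 7.70 on day 2, 5.26, 7.35 and 7.11 on day 3, 7.72, 7.39 and 7.82 on day 4 and 6.08, 5.71 and 5.93 on day 5. The controls alone spanned more than 1 log2 unit, and no day passed against them, although the gene changed over the time course by the F-test.

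The ketone body enzymes of the list moved differently. Bdh1, the beta-hydroxybutyrate dehydrogenase that converts acetoacetate and beta-hydroxybutyrate into each other, had levels of -1.09, -1.76 and -1.46 on day 0, -0.17, 0.01 and 0.07 on day 1, -1.19, -0.39 and 0.55 on day 2, -1.24, -1.28 and -1.10 on day 3, -0.06, -0.45 and -0.23 on day 4 and -0.60, -0.58 and -0.94 on day 5. Days 1, 4 and 5 lay wholly above the controls, day 2 spanned 1.74, and day 3 overlapped the controls. It was 2.65-fold higher on day 1 (1.40 ± 0.31, adjusted p = 0.00514), 2.13-fold on day 2 (1.09 ± 0.31, 0.0114) and 2.28-fold on day 4 (1.19 ± 0.31, 0.00578). The day 2 call was lost without day 2 replicate 4 (0.64) or control replicate 4 (0.93). Acat1, the mitochondrial acetoacetyl-CoA thiolase, was not called (-0.12 to 0.50).

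The 3 arrays of day 3 were uneven. Replicate 2 lay below both other arrays in 31 of the 33 members, against 32.7% of all genes, and by more than 1 log2 unit in 13 of them, against 1.58% of all genes. The gap below the nearer of the other 2 arrays was 3.34 for Angptl4, 3.09 for Ehhadh, 2.53 for Pex11a, 1.81 for Ech1, 1.75 for Acot2 and 1.39 for Cpt2. For Angptl4 the SD was 2.16 on day 3, against 0.17 to 0.51 on the other days. Through the pooled spread it enters the SE of every day. Day 3 replicate 2 shared a slide with day 3 replicate 3 and day 1 replicates 4 and 5. Its level of the 18 proximal tubule markers, summed, was 936 times the 75th percentile, the lowest of the 18 arrays. Whether these tubule transcripts have a part in the gap was not tested.

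Between days of the same scan day (day 3 against day 1, day 5 against day 3, day 5 against day 1, and day 4 against day 2) no member passed the same test. Of all genes 0.00430% were called on day 3 against day 1, 0.00861% on day 5 against day 3, 0.121% on day 5 against day 1 and 0.0990% on day 4 against day 2. At an unadjusted p under 0.05, 18 of the 132 member tests passed (13.6%), near the 12.4% of all genes' tests. Without day 3 replicate 2, 4 members were higher on day 3 than on day 1 (Angptl4 3.47, Ehhadh 2.40, Ech1 1.66 and Cpt2 1.41; 0.176% of all genes called) and 5 were lower on day 5 than on day 3 (Angptl4 -2.87, Ehhadh -2.35, Ech1 -1.45, Acot2 -1.42 and Cpt2 -1.29; 0.168%). That array was left out after its values had been seen, and with it none of these differences passed.

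Of the other genes of the pathway, several had larger changes than any member. Pdk4, the kinase that holds back pyruvate oxidation in fasting, had levels of 3.14, 3.41 and 3.58 on day 0, -1.23, -1.28 and -1.61 on day 1, 2.82, 3.46 and 4.21 on day 2, -1.24, 3.49 and 3.64 on day 3, 0.80, 1.47 and 0.83 on day 4 and -0.23, -0.71 and 0.39 on day 5. Its low arrays were those of days 1, 4 and 5 and day 3 replicate 2, as for Angptl4. The change was -4.75 ± 0.89 on day 1 (adjusted p = 0.00279), -2.34 ± 0.89 on day 4 (0.0377) and -3.56 ± 0.89 on day 5 (0.00596). Creb3l3, a liver and gut transcription factor that works with PPAR alpha, changed by -5.41 ± 0.78 on day 1 and -5.92 ± 0.78 on day 5 (adjusted p = 0.00128 and 0.000631).

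Of 13 tested ketone body and PPAR alpha target genes, 6 were lower on day 1, 1 on day 2, 2 on day 3, 3 on day 4 and 5 on day 5, and none was higher on any day. The shares of all genes lower were 20.8%, 25.1%, 26.0%, 26.7% and 23.4%, so that by count the list lay above them on days 1 and 5 and below them on days 2, 3 and 4. Their median change was -0.41 on day 1 and -0.60 on day 5, against 0.06 over all genes on both days. Of 32 further oxidation enzymes, 8 were lower and 6 higher on day 1, with a median of 0.30, against 20.8% and 19.2% of all genes. Acsl3, a synthetase for long chains, was among the higher ones (1.14 ± 0.22). Abcd2, a peroxisomal fatty acid transporter, was not well above background on any day 1 array and was at least 1.58-fold lower there (adjusted p = 0.00294), a bound set by the lowest signal above background. On day 4, 1 of the 32 was lower and 10 were higher, among them Acsl3 (1.38 ± 0.22), and on day 5 there were 5 lower and 7 higher. The shares of all genes were 26.7% and 25.6% on day 4, and 23.4% and 20.9% on day 5. Without control replicate 4 there were 5 lower and 2 higher on day 1, 1 and 7 on day 4, and 5 and 3 on day 5.

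No propionyl-CoA or TCA cycle enzyme of 18 tested was lower on any day, and 6, 1, 1, 10 and 6 were higher on days 1 to 5, with medians of 0.50 on day 1 and 0.64 on day 4. Of all genes 19.2%, 20.8%, 21.7%, 25.6% and 20.9% were higher, and 1 of 18 on days 2 and 3 is below these shares. Control replicate 4 stood apart in this list, with a mean level of 3.55, against 4.14 and 4.15 on the other controls. Without it 0, 0, 1, 6 and 0 of the 18 were higher, and the medians were 0.31 on day 1 and 0.42 on day 4. Sdhb, a subunit of succinate dehydrogenase, changed by 0.65 ± 0.20 on day 1 and 1.00 ± 0.20 on day 4. Of 7 fatty acid synthesis genes 3 were higher and none lower on day 1, with a median of 0.52. They included Fasn, fatty acid synthase (1.52 ± 0.18, adjusted p = 0.000625), and Srebf1, the lipogenic transcription factor (1.87 ± 0.28, 0.00134). Among 12 nuclear receptors and coactivators 1 was lower and 2 were higher on day 1, with a median of 0.27. The lower one was Rxra, the dimer partner of PPAR alpha, which fell by 2.89 ± 0.60 (adjusted p = 0.00415). Its levels were 1.08, 3.07 and 1.49 on day 0, where control replicate 4 stood high, and -1.68, -1.81 and 0.46 on day 1. These lists were chosen with results of these data known and count as description.

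**Figure D4:**
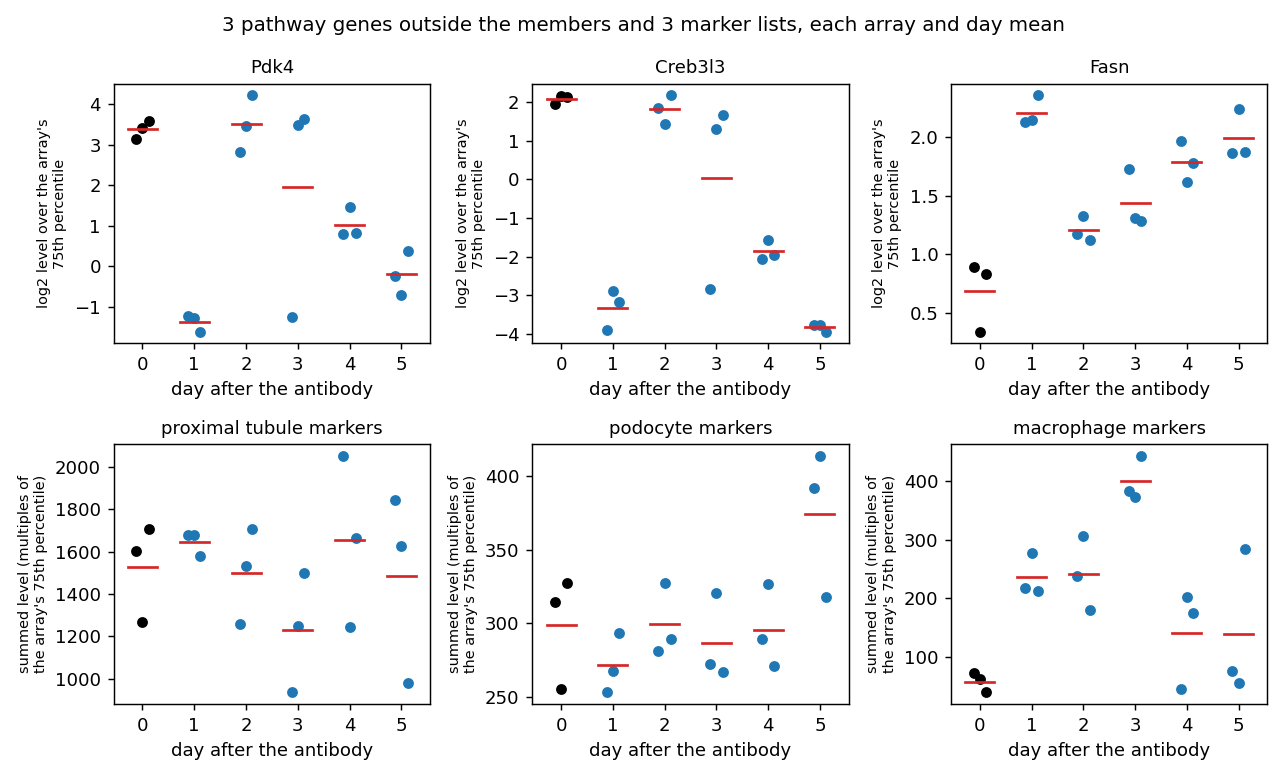
Upper panels show 3 pathway genes outside the 33 members on each array (log2 over the array's 75th percentile), and lower panels the summed level of 3 marker lists (multiples of the 75th percentile); points are arrays and lines day means. Pdk4 and Creb3l3 are low on the arrays of days 1, 4 and 5 and on day 3 replicate 2, while the proximal tubule sum overlaps the day 0 range on every day.

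The samples are labelled glomerulus, and the defining podocyte markers were present, with all 14 tested well above background on all 18 arrays and summed levels of 253 to 413. All 18 proximal tubule markers were well above background on all arrays too. Their sum lay between 1580 and 1681 on day 1, 1260 and 1705 on day 2, 936 and 1501 on day 3, 1247 and 2050 on day 4 and 980 and 1844 on day 5, against 1266 and 1707 on day 0. On days 1 and 5, when Angptl4, Ehhadh and Cpt1a were low, 2 of the 18 were lower and 1 higher on day 1, and 3 lower and 1 higher on day 5. These shares lie below those of all genes, 20.8% and 19.2% on day 1 and 23.4% and 20.9% on day 5. Pck1, a gluconeogenic enzyme of that list, was among the lower ones on both days. Markers of macrophages (15 tested) summed to 212 to 277 on day 1, 180 to 306 on day 2, 373 to 442 on day 3, 45.1 to 203 on day 4 and 55.9 to 284 on day 5, against 40.0 to 72.4 on day 0. Markers of the glomerular endothelium (12 tested) summed to 164 to 202 on day 1, 175 to 284 on day 2, 254 to 318 on day 3, 97.1 to 160 on day 4 and 165 to 196 on day 5, against 184 to 241 on day 0. Of these 12, 4, 3, 3, 6 and 4 were lower on days 1 to 5, and 1 was higher, on day 3. The shares of all genes lower were 20.8%, 25.1%, 26.0%, 26.7% and 23.4%, and 21.7% were higher on day 3. The 3 of 12 lower on days 2 and 3 thus lay near the shares of all genes. The mean log2 level of 10 mesangial markers, whose Thy1 and Itga8 were not well above background on every array, was -0.59 to -0.05 on day 1 and -0.10 to 0.38 on day 2, against 0.52 to 0.89 on day 0. It was 0.56 to 0.66, 0.44 to 1.19 and 0.68 to 1.36 on days 3 to 5. The mean log2 level of the endothelial markers was 0.67 to 0.77 on day 1, against 1.09 to 1.59 on day 0. That of the podocyte markers was 2.37 to 2.66, against 2.86 to 2.97, and it was also below all controls on days 2 to 4. By this measure the mesangial, endothelial and podocyte markers were thus below all controls on day 1, when 7 members were lower. Summed, each of these lists overlapped the controls on day 1. In bulk tissue fewer cells of a type and less RNA per cell cannot be told apart. The part of a changed cell mixture in the members' changes was not tested.

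The 75th percentile of signal was 252 to 452 on the arrays after the antibody, against 181 to 229 on the control arrays. The controls lay on slide 1 with day 1 replicate 1, and on that slide alone the differences of that array from the controls were -3.85 for Angptl4, -2.40 for Ehhadh, -1.48 for Ech1, -1.29 for Cpt1a, 1.27 for Bdh1 and 1.10 for Etfa. Within slide 3 the day 5 arrays differed from day 3 replicate 4 by -3.23 for Angptl4, -2.42 for Ehhadh and -1.64 for Cpt1a. Within slide 4 day 4 replicate 1 differed from the day 2 arrays by -2.94 for Angptl4 and -0.80 for Cpt1a. With slide as a fixed block, 2 members were called lower on day 1 (Angptl4 -3.85 and Cpt1a -1.29) and none on days 3 and 5. Of all genes 11.3%, 8.53% and 0.284% were then called lower on days 1, 3 and 5. The changes on day 5 were larger than without the block, at -5.82 for Angptl4 (adjusted p = 0.074), -4.02 for Ehhadh (0.124), -2.95 for Cpt1a (0.0639) and -2.40 for Ech1 (0.113). No day 5 array shared a slide with a control, so these changes were linked to the controls only through slides 2 and 3. On slide 2 the day 3 arrays, with the low replicate 2 among them, differed from the day 1 arrays by 1.26 for Angptl4 and 0.79 for Ehhadh. The larger day 5 changes thus depend in part on that array. Days 2 and 4 were scanned on another scan day than the controls, so that for these days scan and time cannot be told apart. The scaling between arrays also moved the counts. Scaling to the array median, which moved the median of all genes up by 0.33 to 0.42, gave 5 lower and 3 higher members on day 1 (12.8% and 35.5% of all genes), 3 and 13 on day 4 (3946 and 9753 of the 23230 genes), and 4 and 5 on day 5 (13.2% and 41.3%). With 11 reference genes as the scale, a shift of -0.35 to -0.23 in that median, the counts were 11 lower and 2 higher on day 1 (29.4% and 7.84% of all genes), 6 and 3 on day 4 (37.4% and 12.5%), and 11 and none on day 5 (29.6% and 11.1%). Quantile normalization gave 12 lower and 2 higher on day 1 (16.3% and 18.8% of all genes), 5 and 3 on day 4 (22.0% and 25.3%), and 19 and 2 on day 5 (16.4% and 20.7%). How far the members' lower share on day 1 lay above that of all genes thus depended on the scaling. None of the called member changes turned its sign under any of these scalings.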

How the data were processed

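RNA of rat glomeruli was measured on 18 single-colour arrays, 3 for each of 6 time points. The intensity values deposited by the authors are the processed signals of Agilent Feature Extraction 10.7.3.1, background-subtracted and detrended within each array, per the file headers; they are not scaled between arrays. Mean spot and local background intensity values in the same files served for another background correction. The table deposited by the authors holds log2 values that rank the probes as the processed signals do and share quantiles within days 0, 2 and 4 and within days 1, 3 and 5. It entered 1 alternative, within those sets.

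From the log2 of each processed signal the 75th percentile of its own array was taken off, computed without controls. Spots marked as outliers, and control spots, were dropped. A probe was kept when Feature Extraction marked it well above background on the 3 arrays of at least 1 day (27836 of 41012). Of the 41012 probes, 21598 were named through the rat gene table by accession or symbol. The brightest probe stood for a gene, which left 23230 genes and transcripts, and no probe was saturated. One limma model (version 3.58.1, lmFit with eBayes, 12 residual degrees of freedom) held the 6 groups, in R 4.3.3 with the data.table package, version 1.17.8. Every day was set against day 0, days of 1 scan day were set against each other, a moderated F-test spanned the time course, and Benjamini-Hochberg adjusted p-values had a threshold of 0.05. The fit was tested on simulated data. The number of arrays limits the precision.

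The 33 members and the other lists were chosen with earlier results of these data known. Array values are given for members that passed on at least 1 day, for Ppara and Ppargc1a and for Cpt1a, and of the other lists for Pdk4, with changes for up to 2 genes per list and direction with the lowest p on the day described. Cyp4a3 was added for its F-test. The alternatives covered scaling, background correction, the filter, the probe of a gene, slide, replicate number, the arrays in the fit and leaving out each array. Some results the rule would name are not reported here.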

Additional observations from a re-analysis of the deposited data

How the results depend on the processing

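Of the 34 called member changes, each tried under 12 other settings (408 values), 322 values kept their call, 86 lost it, and no sign changed. With each of the 18 arrays left out in turn (612 values), 558 kept the call, 54 lost it and no sign changed. The day 3 change of Hadha, 0.04 with the brightest probe, was -0.49 with the mean of its probes and passed. The cause of the changes below was not tested, except where given. Counts are of called members, then of called genes among the other pathway genes.

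Leaving out 1 array gave 5 to 8 members lower on day 1, 0 on day 2, 1 to 6 on day 3, 2 to 5 on day 4 and 6 to 11 on day 5, and 1 to 2, 1 to 4, 0 to 3, 3 to 5 and 0 to 2 higher. Of the other pathway genes 9 to 16, 3 to 6, 5 to 10, 4 to 7 and 10 to 15 were then lower, and 5 to 18, 5 to 13, 8 to 10, 19 to 27 and 7 to 24 higher. Calls over all 23230 genes moved as well, with 2620 to 5203, 4373 to 5940, 4821 to 6135, 5131 to 6301 and 3700 to 5566 lower on days 1 to 5. The higher ones numbered 2009 to 4918, 2772 to 5198, 3568 to 5339, 4197 to 6176 and 2826 to 5266. The F-test called 10 to 21 members, 10 without day 2 replicate 3. Tests within a scan day gave 0 to 10 calls, 10 without day 3 replicate 2. Day 3 had 6 lower members without day 3 replicate 4 and 2 without day 4 replicate 3, day 4 had 5 without day 3 replicate 2, and day 5 had 6 without day 5 replicate 5. Without day 0 replicate 4, 1, 1, 0 and 0 members were higher on days 1, 2, 3 and 5, and 5, 5 and 7 other genes on days 1, 2 and 5, with 3 other genes lower on day 2. Day 1 had 1 higher member and 5 higher other genes without day 1 replicate 4, and 7 higher and 9 lower other genes without day 1 replicate 1. Day 2 had 1 higher member and 7 other genes without day 2 replicate 4, and 6 other genes without day 2 replicate 3. Day 3 had no higher member without day 3 replicate 3 and 1 without any of 12 other arrays. Day 5 had no higher member without day 5 replicate 2, 2 without day 0 replicate 2, day 2 replicate 2, day 2 replicate 4 or day 5 replicate 5, and 11 higher other genes without day 5 replicate 4.

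Quantile normalization gave 12, 7, 5 and 19 lower members on days 1, 3, 4 and 5, 1 and 2 higher on days 3 and 5, and 11, 7 and 11 other genes higher on days 1, 2 and 5. The shares of all genes lower were then 16.3%, 20.3%, 22.0% and 16.4% on days 1, 3, 4 and 5. Those higher were 18.8%, 22.4%, 22.9% and 20.7% on days 1, 2, 3 and 5. Scaling to the array median gave 0 and 4 lower members on days 3 and 5, 13 and 5 higher on days 4 and 5, 9 and 3 other genes lower on days 1 and 2, and 36, 32, 21, 42 and 38 higher on days 1 to 5. Here the shares of all genes lower were 12.8%, 16.7%, 16.2% and 13.2% on days 1, 2, 3 and 5. Those higher were 35.5%, 39.1%, 37.9%, 42.0% and 41.3% on days 1 to 5. Scaling to 11 reference genes (12 were planned) gave 11, 2 and 6 lower members on days 1, 3 and 4, 1, 0 and 0 higher on days 2, 3 and 5, 12 and 12 other genes lower on days 3 and 4, and 5, 5, 11 and 8 higher on days 1, 2, 4 and 5. Over all genes, 45.3% to 48.9% of the calls were higher in the main setting, 70.0% to 75.8% with the array median, and 21.0% to 27.3% with the reference genes.

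Background correction with normexp (offset 50) on the local background gave no lower member on days 1 and 5, no higher member on days 1, 2, 3 and 5, 2 higher on day 4, and 2 in the F-test. Of the other pathway genes 0, 1, 1, 2 and 0 were lower and 0, 1, 1, 3 and 0 higher. Calls were few over all 23230 genes too, with 19, 930, 773, 1317 and 53 lower on days 1 to 5. The higher ones numbered 9, 549, 772, 1290 and 3. In that setting the 5th percentile of signal rose to 1120 on day 1 replicate 1 and 984 on day 5 replicate 5, against at most 94.8 elsewhere. The lowest mean signal minus local background of a spot was -65207 and -60130 on these 2 arrays. With the array's median background instead, chosen after seeing the data, 8 members were higher on day 4, 10, 12 and 13 other genes lower on days 2, 3 and 4, and 23 higher on day 2. Among all 23230 genes 8983, 9149 and 9612 were then lower on days 2, 3 and 4, and 4865 and 5499 higher on days 2 and 4.

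Fitting only the arrays compared, which leaves fewer degrees of freedom, gave 1, 2, 1 and 0 higher members on days 1, 2, 3 and 5, 5, 6, 5, 16 and 5 other genes higher on days 1 to 5, and 1 call within a scan day. Among all 23230 genes 1443, 3450, 3352, 4036 and 1402 were then higher on days 1 to 5. Within a scan day 42 genes were lower and 178 higher on day 3 against day 1, and at most 1 per direction otherwise. Slide as a fixed block, possible on days 1, 3 and 5, gave 2, 0 and 0 lower and no higher members, 5, 1 and 1 other genes lower and 5, 1 and 0 higher. With it 11.3%, 8.53% and 0.284% of all genes were lower, and 6.41%, 3.99% and 0.159% higher. Slide as a random block (correlation -0.03) gave 2 lower members on day 3, as did the filter for probes well above background on all arrays. Lower over all genes were 6182 of 23230 with the random block and 3747 of 18031 with that filter. The mean of a gene's probes gave 3 lower members on day 3 (6443 of 23230 genes), and no filter gave 1 higher member there (4565 of 35122). The authors' table, for days 2 and 4, gave 8 lower members on day 4 and 6 and 13 other genes higher. In it 4745 of the 23230 genes were lower on day 4, and 4383 and 5161 were higher on days 2 and 4.

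The replicate block gave 0 higher members on day 3, 5 in the F-test, and 7, 6 and 13 other genes higher on days 1, 2 and 4. With this block 2953, 3337, 3850 and 3608 of the 23230 genes were higher on days 1 to 4. Same-numbered arrays of different days had residual correlations of -0.38 to 0.28 over 27 pairs, against -0.66 to 0.55 over 108 other pairs. Of the 18 arrays 0 correlated best with their own number. These values gave no sign of pairing by number, but with 3 arrays per day they could not exclude it.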
